A study of Mus musculus with 2 samples.

Results

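The transcripts described here are well-expressed protein-coding transcripts of mouse embryonic stem cells whose intron value equalled or exceeded their exon value in newly transcribed RNA. They were selected on measured values: exon and intron values above 0 in both libraries, a mean exon value of at least 50 over both libraries, and a labeled intron value at or above the labeled exon value. This rule took 438 transcripts of 327 genes. The background was 10355 well-expressed protein-coding transcripts of 4554 genes, of which 4.23% met the rule. The share was 14.6%, 1.86% and 32.7% with exon minimums of 10, 100 and none, 2.56% with 50 in each library, 2.66% with 1 transcript per gene, 1.55% with an intron of at least 1.5 times the exon, and 16.5% after leakage of unlabeled RNA into the labeled library was subtracted. The paper gives no measured leakage, so the last share rests on the factor used. The whole table held 121429 transcripts, and 33997 of them were protein-coding with all 4 values above 0.

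The study followed RNA through its life by adding 4-thiouridine (4sU), a uridine analog that cells build into the RNA they are making, at 200 µM for 10 minutes. Labeled RNA was tagged with biotin and pulled down with streptavidin beads, and the RNA left in the supernatant was kept as the unlabeled, preexisting pool. The cells were wild-type DTCM23/49 XY mouse embryonic stem cells, depleted of feeders and grown on gelatin with serum and leukemia inhibitory factor. Each pool gave 1 library, both from biological replicate 1, so no difference below has a replicate check and none was tested. Further replicates named in the paper are not analysed here.

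An intron is removed from a transcript by the spliceosome, often while RNA polymerase II is still transcribing the gene, and the excised intron is then usually degraded fast. Newly made RNA therefore holds more intron sequence than the older pool, in which mature messenger RNA has built up. Kinetic models of RNA life read the ratio of intron to exon as a measure of how much precursor there is per transcript, and such models need precursor to stay below the sum of precursor and mature RNA. The transcripts described here lie at or past that bound. An annotated intron can also hold other sequence, such as an exon of another isoform, a neighbouring gene or a pseudogene, which is a copy of a gene that has usually lost its function.

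The label of the cells was checked against marker genes, with exon values summed over the transcripts of each gene. The 8 stem cell markers summed to 12178 in the labeled and 16084 in the unlabeled library, led by Tdgf1 at 6384 and 10031, a co-receptor of Nodal. The core pluripotency factor Pou5f1 had 783 and 1198, and Nanog had 1099 and 2416. The 5 feeder fibroblast markers summed to 8.95 and 20.9, with Lum at 0 in both libraries and Thy1 highest at 6.03 and 14.5. The 6 markers of differentiated lineages summed to 159 and 184, most of it from Pax6 (138 and 151), and Sox17 and Foxa2 were listed at 0.

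Among the 438 transcripts the median labeled exon value was 51.8 (lowest 8.99, highest 1325) and the median labeled intron value was 75.0 (lowest 13.3, highest 1811). In the unlabeled library the median exon value was 94.1 (22.4 to 986) and the median intron value 20.3 (2.13 to 2483). All 4 are in the deposited scale, in which each library sums to 10000000 over exon and intron entries. The order of intron and exon was thus turned round between the pools at the medians: intron above exon in labeled RNA, as the rule requires, and exon above intron in unlabeled RNA. For the 9917 well-expressed transcripts outside the rule, the median labeled exon and intron values were 94.0 and 27.7, and the unlabeled ones 146 and 6.42. The transcripts selected held 1.22% of the labeled exon value of all well-expressed transcripts and 11.3% of their labeled intron value. In the unlabeled library these shares were 1.58% and 18.5%.

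The labeled intron to exon ratio had a median of 1.32, with the middle of the transcripts between 1.13 and 1.74 (quartiles) and a range from 1.00 to 45.9. At least 1.1 was reached by 354 transcripts (80.8%), at least 1.5 by 160 (36.5%), at least 2 by 78, at least 3 by 30 and at least 5 by 10. Just inside it were Tefm-202, for a mitochondrial transcription elongation factor (labeled intron 125.7, exon 125.67, ratio 1.00), Map4-202, for a microtubule-associated protein (42.8 and 42.7), and Tet2-205, for a DNA demethylase (59.0 and 58.6). Just outside it were Abi2-203 (35.26 and 35.27), Qrich1-207 (67.1 and 67.4) and Vps4b-201 (48.2 and 48.5). At the exon minimum, Aen-201 was just inside with a mean exon value of 50.1, followed by Hsph1-202 at 50.2 and Sertad2-201 at 50.2. Mettl9-201 (49.96), Ap3m1-204 (49.9) and Luc7l-203 (49.9) had labeled ratios of 1 or more and fell just below the minimum.

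The unlabeled library was not part of the ratio rule, although its exon value entered the mean. There the median intron to exon ratio of the selected transcripts was 0.194 (quartiles 0.109 and 0.522), against 0.0397 (0.0207 and 0.0755) in the other well-expressed transcripts. The level depended on the rule, at 0.301 against 0.0300 with an exon minimum of 100, 0.537 against 0.0726 with no minimum, 0.337 against 0.0364 with 50 in each library, 0.393 against 0.0408 with an intron of at least 1.5 times the exon, and 0.0675 against 0.0378 after leakage was subtracted. An unlabeled intron at or above the exon was found in 57 of the 438 (13.01%), against 0.695% of all well-expressed transcripts. Of the 72 well-expressed transcripts with such an unlabeled ratio, 15 were outside the rule. At the other end, 98 of the 438 (22.4%) had an unlabeled ratio under 0.1, a level that 82.8% of the others were under. Across the 438 transcripts the log2 ratios of both libraries had a Pearson correlation of 0.51 (Spearman 0.40). Across all 10355 it was 0.69 (Spearman 0.65). Transcripts share genes, introns and both libraries, so these are descriptions and not tests.

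The labeled ratio was at least 2 times the unlabeled one in 372 of 438 transcripts (84.9%), a call that 89.9% of all well-expressed transcripts met; the rule used the labeled ratio, so nothing is read from this. The reverse order, an unlabeled ratio at or above the labeled one, was found in 21 of 438 (4.79%) against 2.46% of all well-expressed transcripts. Labeled intron values exceeded unlabeled ones in 413 transcripts (94.3%), against 98.3% of all well-expressed ones. The median labeled exon value was 0.512 times the unlabeled exon value, against 0.598 in the other well-expressed transcripts, and the median labeled intron value was 3.60 times the unlabeled one, against 4.25. The order of the exon values turned round with no minimum (0.842 against 0.760) and with an exon value of at least 50 in each library (0.738 against 0.632), and after leakage of unlabeled RNA was subtracted the values were 0.190 and 0.459.

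The set was also divided by the unlabeled ratio. The 57 transcripts with an unlabeled ratio of at least 1 had a median unspliced length of 9370 bases, and 27 of them (47.4%) had at least 5% of their intronic sequence inside exons of other genes. At least 50% of the intronic sequence was exon in other transcripts of the same gene in 13 of the 57 (22.8%). The 98 transcripts with an unlabeled ratio under 0.1 had a median unspliced length of 36980 bases, and these shares were 14.3% and 2.04%. Between them, the 56 transcripts from 0.5 to 1 had 13761 bases, 12.5% and 14.3%, and the 227 from 0.1 to 0.5 had 17277 bases, 13.7% and 2.20%, so the share overlapping other genes differed little among the groups below 1. In the group of 98 the median labeled exon value was 33.3 and the unlabeled one 104. In the group of 57 the exon medians were 81.1 and 70.6 and the intron medians 176 and 148, with a median labeled to unlabeled intron ratio of 1.34 per transcript. Exon and intron values define both the rule and these groups, so the levels are a description of what was chosen.

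The highest labeled ratio belonged to Zfp605-202, for a zinc finger protein (chr5:110110092-110129794, plus strand, GRCm38). Its exon value was 39.4 in the labeled and 64.7 in the unlabeled library, and its intron value was 1811 and 1729. The intron level was thus near equal in both pools, at 45.9 and 26.7 times the exon level. Next came Rimklb-206, for an enzyme that joins glutamate to N-acetylaspartate, with exon values of 34.3 and 77.9 and intron values of 339 and 87.2. Mettl23-205, for an arginine methyltransferase, had the highest unlabeled ratio, 103, from an exon value of 24 and an intron value of 2483; its labeled exon and intron values were 97.6 and 902. Its intron value was higher in the older pool, unlike in most of the set.

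Introns of all 3 hold exon bases of another gene with a higher mean exon value than theirs. The part of these genes in the intron values was not tested. Introns of Zfp605-202 hold 828 exon bases of Gm15484, a processed pseudogene on the opposite strand listed at 35822 in the labeled and 33298 in the unlabeled library. A processed pseudogene is a messenger RNA copied back into the genome. Of its 31-mers (stretches of 31 bases, either strand), 44.2% also occurred in transcripts of Npm1, a nucleolar chaperone gene listed at 236420 and 201851. Rimklb-206 holds 471 bases of the pseudogene Gm8430 (6268 and 1632), which shares 92.97% of its 31-mers with Rps27a, for a fusion of ubiquitin and a ribosomal protein (16390 and 4024). Mettl23-205 holds 2958 exon bases of Srsf2, a splicing factor gene on the opposite strand with summed exon values of 11927 and 26723. Of its own exon 31-mers, 75.2% also occurred in other genes, most of all in Mfsd11, so its exon values are uncertain too.

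Across the set, 79 of 438 transcripts (18.04%) had an intron that holds at least 50 exon bases of another gene with a higher mean exon value than their own, against 6.70% of the other well-expressed transcripts. For 36 of the 438 (8.22%, against 1.79%) the highest such gene was a pseudogene. These were 24 different pseudogenes in 24 host genes, 10 on the strand of the host and 14 on the opposite strand. The coding gene outside the host that shared most 31-mers with the pseudogene was a ribosomal protein gene for 11 of the 24, and for 15 of the 24 it held at least 50% of the pseudogene's 31-mers. Reads of a near-identical copy cannot be assigned with certainty, so intron values of these hosts are uncertain, and the part of the copies in them was not tested.

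Values of several hosts are given beside those of their pseudogenes, labeled first and unlabeled second. Gclm, the modifier subunit of the enzyme that starts glutathione synthesis, had 4 selected transcripts, all of those well expressed. Its most abundant one, Gclm-203, had exon values of 198 and 420 and intron values of 525 and 434. The pseudogene Gm6061 in its introns was listed at 8917 and 6778, and shares 93.3% of its 31-mers with Ppia (36996 and 31858), for cyclophilin A. Luc7l is the gene of a protein of the U1 small nuclear ribonucleoprotein, and Luc7l-207 had intron values of 206 labeled and 680 unlabeled beside exon values of 47.02 and 54.8. Its introns hold Gm16580 (2612 and 8213), of whose 31-mers 56.2% occur in Pabpc1 (8682 and 26402), the cytoplasmic poly(A)-binding protein gene.

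Values of 3 more hosts follow. Zfp638-217 had intron values of 195 and 244 beside exon values of 42.2 and 105, and holds Gm5138 (9061 and 13393), which shares 90.4% of its 31-mers with Gapdh (52691 and 71272). Cnot6-203, for a deadenylase that shortens poly(A) tails, had intron values of 127 and 24.8 beside exon values of 86.5 and 126, and holds Gm12191 (7365 and 2119), with 90.3% of its 31-mers in Rpl30 (16205 and 4232). Orc5-204, for a subunit of the origin recognition complex, had intron values of 82.6 and 15.2 beside exon values of 75.6 and 117, and holds Gm15421 (2432 and 688), with 70.3% in Rpl22l1. In 34 of the 36 transcripts, intron and pseudogene were higher in the same library, beside 94.3% of the 438 and 98.3% of all well-expressed transcripts with the higher intron value in the labeled one. The exceptions, named after their values were seen, were Eps15-201 (intron values 43.4 and 9.60; Gm12749 at 90.8 and 204) and Tmem165-201 (65.0 and 23.1; Apc-ps1 at 168 and 184). Across the 36 the log2 labeled to unlabeled values of intron and pseudogene had a Pearson correlation of 0.78 (Spearman 0.76), with shared pseudogenes and libraries among the points. For the 42 transcripts with another kind of higher gene in an intron and a value above 0 for it in both libraries, it was 0.33 (Spearman 0.26), with the same library higher in 30. The part of the overlapping genes in these intron values was not tested.

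Overlaps with genes on the opposite strand were counted too: 47 of 438 transcripts (10.7%) had at least 5% of their intronic sequence in exons of genes on the opposite strand, against 5.30% elsewhere. Beside Mettl23 and Srsf2, Cox20-201, for an assembly factor of cytochrome c oxidase, overlaps Hnrnpu (4674 and 8135), for an abundant nuclear RNA-binding protein. Cox20-201 had exon values of 142 and 68.9 and intron values of 193 and 31.3. Phykpl-206, whose introns overlap Hnrnpab (2862 and 6832), had exon values of 93.3 and 28.6 and intron values of 249 and 183, and Pdcd2-205, facing the gene of the TATA-binding protein Tbp (1635 and 2444), had exon values of 66.7 and 57.7 and intron values of 73.0 and 16.4. Whether the counting used the strand was not given in the sources used here, so reads of such partners may not be told apart. On the same strand the share with such an overlap was 6.39%, against 4.57%. For introns holding a gene with a higher exon value the shares were 7.08% against 1.55% on the same strand and 10.96% against 5.14% on the opposite one. The ratio of the shares was larger on the same strand, but the difference in percentage points was not.

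Exons of the same gene also fill annotated introns. At least 50% of the intronic sequence was exon in other transcripts of the gene for 28 of 438 (6.39%), against 4.77% of the others, and all of it for 9 (2.05%), against 0.555%. The order of the first pair depended on the rule: it was 3.28% against 4.07% with an exon minimum of 10, 2.38% against 3.95% with no minimum, 2.06% against 5.41% after leakage was subtracted, and 3.94% against 4.49% without transcripts with an end not found. One of the 9 was Tardbp-221, a minor isoform of the gene for the RNA-binding protein TDP-43 that made up 1.26% of its gene's exon value. It had exon values of 82.7 and 23.3 and intron values of 431 and 296, so intron exceeded exon by 5.21 and 12.7 times. Sall4-207, of the pluripotency factor gene Sall4, had exon values of 20.7 and 143 and intron values of 68.4 and 390, higher in the unlabeled library. Brca1-207, of the DNA repair gene Brca1, had exon values of 49.3 and 95.6 and intron values of 68.3 and 93.7, and Cnn3-208, of an actin-binding calponin gene, 169 and 109 in exons and 175 and 189 in introns.

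The ends of such introns can be read, because another transcript of the gene keeps them as exon. They are shown to let the annotated boundaries be compared with the GT start and AG end that most spliceosomal introns have. Each was read from the GENCODE M21 transcript named, 5′ to 3′; capitals mark the first 6 bases of the intron in a 5′ end and its last 2 in a 3′ end, and lower case before the one and after the other is exon. Sall4-207 (chr2:168755130-168755765, minus strand, GRCm38, 636 bases) is kept in Sall4-201, and Brca1-207 (chr11:101524411-101524545, minus strand, 135 bases) in Brca1-201. Cnn3-208 (chr3:121457213-121457788, plus strand, 576 bases) is kept in Cnn3-201, and the longer Tardbp-221 intron (chr4:148612723-148615742, minus strand, 3020 bases) in Tardbp-202. Gm14403-201 (chr2:177508642-177509061, plus strand, 420 bases) is kept in Gm14403-202, and Gm7879-202 (chr5:43913509-43913637, plus strand, 129 bases) in Gm7879-201.
Sall4-207 5′ end: tcgtcctcgGTAAGC
Sall4-207 3′ end: ccgtacccacacAGggg
Brca1-207 5′ end: gtcaagaagGTAAGC
Brca1-207 3′ end: ttttaaacaatcAGttt
Cnn3-208 5′ end: aatgagcgtGTATGG
Cnn3-208 3′ end: tcctttttttacAGttt
Tardbp-221 5′ end: agtcctgggGTAAGT
Tardbp-221 3′ end: gcgtccattaccAGgct
Gm14403-201 5′ end: cacatacagGAGAGA
Gm14403-201 3′ end: gcgaacacatacAGgag
Gm7879-202 5′ end: ctttccatgGCAAAC
Gm7879-202 3′ end: tgaggaagatcgAGaat

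The introns of Sall4-207, Brca1-207, Cnn3-208 and Tardbp-221 shown start with GT and end with AG, and those of Gm14403-201 and Gm7879-202 do not start with GT. Gm14403-201, from a zinc finger gene cluster, had exon values of 265 and 366 and intron values of 306 and 379; Gm7879-202 had exon values of 143 and 43.3 and intron values of 315 and 159. Over all introns that could be read in this way, 109 of 125 distinct introns of selected transcripts (87.2%) had GT and AG ends, against 96.1% of 3287 in other well-expressed transcripts. GC and AG ends were found in 6 of the 125, and 10 had other ends. A start with ATATCC or GTATCC, the letters that mark the rare class of introns removed by the minor spliceosome, was found in 1 of the 125 and in 24 of the 3287. Where several transcripts kept an intron, only the first by identifier was read. It was annotated as a retained intron for 57.6% of the 125 and 73.6% of the 3287.

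Copies of the exons themselves were common too. At least 90% of the exon 31-mers also occurred in transcripts of other genes for 55 of 438 transcripts (12.6%), against 2.56% of the other well-expressed ones, and at least 50% did for 93 (21.2%), against 10.9%. No 31-mer was shared for 38.4%, against 38.2%. Exon and intron values of transcripts with near-identical copies are uncertain, since reads may be split among the copies. Examples among transcripts named in other paragraphs are Hnrnpf-206 (79.3% of exon 31-mers in other genes), Gm7879-202 (77.5%) and Eno1-210 (69.1%). Predicted genes named Gm and a number, a group taken after values were seen, gave 51 selected transcripts of 43 genes, or 21.7% of all well-expressed transcripts of such genes.

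Some selected genes lay in runs along the chromosomes. A run was taken as at least 4 selected genes, each less than 500000 bases from the next. The 5 runs found held 40 of the 327 selected genes (12.2%), and their spans held 65 of the 4554 well-expressed genes (1.43%), a contrast that choosing runs by selected genes favours. On chromosome 14, from 3332627 to 5807958, 17 predicted genes held 21 selected transcripts, and the span held 40 well-expressed transcripts of 24 genes in all (52.5% selected). Their labeled ratios ran from 1.01 to 2.60 and their unlabeled ratios from 0.178 to 1.30, and the median share of exon 31-mers found in other genes was 98.4%. Gm3194-201 from this run had exon values of 84.2 and 110.3 and intron values of 208 and 71.4. Well-expressed transcripts of the run that missed the rule had a median labeled ratio of 0.695, against 0.282 for all such transcripts. The same median was 0.756 in the second run on chromosome 14, but 0.345 and 0.338 in the runs on chromosome 2. A second run on chromosome 14 (7006115 to 7568566) held 4 predicted genes with 5 selected transcripts, among 10 well-expressed ones of 6 genes.

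Chromosome 2 held a run of zinc finger and predicted genes (175010241 to 176808618), with 12 selected transcripts of 11 genes among 71 well-expressed ones of 26 genes, and labeled ratios from 1.06 to 1.92. The selected transcripts of Zfp966, Zfp967, Zfp969 and Zfp973 there had 100% of their exon 31-mers in other genes. Zfp966-202 had exon values of 77.0 and 85.4 and intron values of 148 and 124. The other run on chromosome 2 (156071845 to 156180238) joined Cpne1, for a calcium-binding copine, Gm28036, and the RNA-binding protein genes Rbm12 and Rbm39, with 6 selected transcripts among the 16 well-expressed ones of the span. Gm28036 shares exons with Cpne1: the selected transcripts of Cpne1 had 99.2% and 99.1% of their 31-mers in other genes, most of all in Gm28036.

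The run on chromosome 19 (4756571 to 4811634) held Rbm4b, Rbm4, Gm21992 and Rbm14, and all 9 of its well-expressed transcripts were selected. These genes code for RNA-binding proteins, Rbm4 being a splicing regulator and Rbm14 a coactivator found in paraspeckles, and transcripts of Gm21992 run across both. Rbm14-201 had exon values of 49.95 and 75.6 and intron values of 261 and 39.5, and Rbm4-206 had exon values of 73.8 and 90.7 and intron values of 202 and 160. Intron exceeded exon in both libraries for Rbm4, and only in labeled RNA for Rbm14. Rbm4b-201 had exon values of 89.6 and 48.6 and intron values of 155 and 75.7. Gm21992-204 holds 3665 exon bases of Rbm4 in its intron, and the part of this overlap in its values was not tested.

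Within single genes, selected transcripts stood beside isoforms that missed the rule. Of the 327 genes, 251 had 1 selected transcript, 53 had 2 and 23 had at least 3. Every well-expressed transcript was selected in 97 genes, and 230 genes also had well-expressed transcripts under the bound. In those 230 genes the gene medians of selected and other transcripts had medians of 52.2 and 107 for the labeled exon value and 72.4 and 47.4 for the labeled intron value. The exon value was lower in the selected transcripts in 210 of the 230 genes, and the intron value higher in 193, both values that the rule used.

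Lengths and isoform shares were also compared. In 156 of the 230 genes the selected transcripts had a shorter spliced length, with medians of 1052 and 2255 bases. The gene had another protein-coding isoform with a higher mean exon value for 319 of 438 selected transcripts (72.8%), against 55.5% of the other well-expressed ones. The median share of a gene's protein-coding exon value was 22.1%, against 30.5%, and 104 of 438 (23.7%, against 8.65%) were under 10% of their gene. At the other end, 84 (19.2%, against 27.7%) held at least 50% of it. The labeled exon value, which the rule takes low, is part of these isoform comparisons. When intron and exon values were summed over the protein-coding transcripts of a gene, 148 of 327 genes (45.3%) had a labeled ratio of at least 1, with a median of 0.912. Over all 4554 genes this share was 4.48% and the median 0.319. Isoforms can share introns, and how reads of a shared intron were divided among them was not given in the sources used here. The highest intron value of any isoform was therefore also set over the summed exon value. With it, 67 of the 327 genes (20.5%) reached 1 and the median was 0.376, against 1.54% and 0.153 over all 4554 genes. This measure leaves out the intron values of other isoforms, so it cannot exceed the ratio of sums. Gapdh-209, of the glycolytic enzyme gene Gapdh, is an extreme case, with 0.672% of its gene's exon value: its exon values were 205 and 312 and its intron values 211 and 51.3.

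The genes with most selected transcripts were Pml, Ube3a and Zmynd8, with 5 each. Pml, the organizer of nuclear bodies, had 5 of its 6 well-expressed transcripts in the set, with labeled ratios between 1.06 and 1.42 and unlabeled ones between 0.123 and 0.137. Its most abundant one, Pml-203, had exon values of 67.6 and 218 and intron values of 96.1 and 27.8, and its gene sum had a labeled ratio of 1.31. Ube3a, an imprinted ubiquitin ligase gene, had low labeled exon values: Ube3a-211 had 22.6 and 310.5 in exons and 48.6 and 13.4 in introns. Zmynd8-202, for a reader of acetylated chromatin, had 41.1 and 91.8 in exons and 53.0 and 13.4 in introns. In all 3 genes exon values were higher in the older pool and intron values in the newly made one. Introns of the 5 Pml transcripts hold the microRNA gene Mir6385 on the opposite strand (480 labeled and 86.7 unlabeled). Those of 4 Zmynd8 transcripts hold the antisense gene Gm11465 (148 and 59.1). The part of these genes in the intron values was not tested.

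The next genes had 4 each. The uncharacterized gene 2410002F23Rik hosts small nucleolar RNAs, among them Snord88a and Snord88c, in introns of the selected transcripts. Its 2410002F23Rik-217 had exon values of 63.7 and 74.2 and intron values of 95.9 and 46.96, and 89.4% of that intronic sequence was exon in other transcripts of the gene. Introns of 2.28% of the selected transcripts held a small nucleolar RNA gene, against 3.04% elsewhere, and 1.83% held a microRNA gene, against 3.65%. Zc3h7a-201, for a zinc finger protein, holds the small nuclear RNA gene Gm24145 and had intron values of 115 labeled and 1259 unlabeled beside exon values of 70.8 and 60.3. The mean exon value of Gm24145 itself was 10.4.

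The highest mean exon value in the set was 1152, of Gm47283-202, a predicted gene at the end of chromosome Y (chrY:90785501-90816464, plus strand). Its exon values were 1325 and 979 and its intron values 1608 and 464. Zfp979-202 (480.2 and 788 in exons, 694 and 155 in introns) and Zfp991-202 (172 and 405, 699 and 267) came from a group of zinc finger genes on chromosome 4. Cd59b-204, for a complement inhibitor at the cell surface, had 439 and 208 in exons and 512 and 714 in introns, and Gm21887-202 on chromosome X 356 and 269 in exons and 459.5 and 682 in introns. These last 2 had more intron signal in the unlabeled library. Of the exon 31-mers of Gm47283-202, 62.2% also occurred in other genes, most of all in Gm21887. For Gm21887-202 the share was 36.9%, most of all in Gm47283. Reads may be split between these genes, so the exon values and ratios of both transcripts are uncertain.

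High levels were the exception, since the share of transcripts meeting the rule fell with expression. It was 7.52% of 4337 transcripts with a mean exon value from 50 to 100, 3.14% of 3027 from 100 to 200, and 0.568% of 2991 at 200 or more, and the 3 levels held 326, 95 and 17 selected transcripts. Exon values form both the level and the ratio, so the order is partly set by the rule. The unlabeled ratio of the selected transcripts had medians of 0.186, 0.263 and 0.474 in these levels, against 0.0582, 0.0391 and 0.0209 in the others. The gap was thus present within each level.

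The lowest 5 unlabeled ratios in the set came with unlabeled intron values from 2.84 to 10.3. The median of the other well-expressed transcripts was 6.42 (quartiles 3.71 and 11.4), and only Zic2-201 lay outside these quartiles, below the lower one. Gja1-201, for the gap junction protein connexin 43, had exon values of 44.9 and 243 and intron values of 50.6 and 4.44, an unlabeled ratio of 0.0183. Ptp4a1-204, for a tyrosine phosphatase, had 101 and 276 in exons and 108 and 5.05 in introns, and 94.95% of its exon 31-mers also occurred in a second gene record named Ptp4a1. Ppp1cb-201, for a catalytic subunit of protein phosphatase 1, had 78.6 and 467 in exons and 83.5 and 10.3 in introns. Sgk1-206, for a kinase induced by serum and glucocorticoids, had 146 and 255 in exons and 156 and 6.31 in introns, and Zic2-201, for a zinc finger transcription factor, 19.3 and 105 in exons and 19.8 and 2.84 in introns. All 5 had labeled ratios under 1.13.

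In annotated structure, the selected transcripts had a median of 5 exons against 8, a spliced length of 1458 bases against 2216, and an unspliced length of 17453 bases against 22159. The order of the unspliced lengths depended on the rule: selected transcripts were the longer ones with an exon minimum of 10 (24333 against 21885 bases), with no minimum (28104 against 20932), with 1 transcript per gene (22173 against 21023) and after leakage of unlabeled RNA was subtracted (32608 against 20277). Spliced lengths changed order under the last 3 of these settings, for example 2663 against 2230 bases with 1 transcript per gene. Without transcripts with an end not found they were close, at 2594 against 2658 bases. A single intron was found in 37 (8.45%, against 2.58%), and 10 or more introns in 69 (15.8%, against 40.0%). An end marked as not found, which means that the annotated transcript is incomplete, was found in 36.3% against 19.8%, and 42.5% against 63.0% had a consensus coding sequence. The longest unspliced lengths were those of Etv6-202, for an ETS repressor (234459 bases; exon values 35.8 and 79.2, intron values 40.1 and 10.4), Tcf7l1-202, for a Wnt pathway repressor (161681 bases; 18.5 and 105, 22.2 and 6.96), and Schip1-205 (158299 bases; 27.6 and 93.3, 28.5 and 7.64). The shortest were Brca1-207 (666 bases), Gm7879-202 (764) and Cnn3-208 (837).

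Single-intron transcripts came from varied genes. Beside Gm14403-201, Gapdh-209, Gja1-201, Pml-203 and Cnn3-208, given above, Gm21992-204 had exon values of 128 and 188 and intron values of 179 and 88.9. Morf4l2-208, of a chromatin protein gene, had 84.6 and 177 in exons and 119 and 36.4 in introns. Tgif1-206, of a homeobox repressor gene, had 46.4 and 169.8 in exons and 56.9 and 11.1 in introns. Plekhf2-202, of an endosome protein gene, had 52.5 and 146 in exons and 115 and 15.0 in introns. Uqcrq-202, of a subunit of respiratory complex III, had 161 and 36.5 in exons and 486 and 121 in introns. It was 1 of 7 among the 37 single-intron transcripts with more of both in labeled RNA, as was Gm7879-202, given above.

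Among 22 gene lists, those of zinc finger proteins, splicing regulators, and DNA replication and repair had the highest shares of selected transcripts, the second of them through its Rbm genes. Of 164 well-expressed transcripts of SR proteins and other splicing regulators, 16 (9.76%) were selected, from 10 genes, against 4.23% of all. The median ratios of the whole list were 0.331 labeled and 0.0719 unlabeled, against 0.292 and 0.0416 over all well-expressed transcripts. Rbm3-205, of a cold-inducible RNA-binding protein gene, had exon values of 186 and 277 and intron values of 222 and 296. Srsf10-205, of an SR protein gene, had 111 and 193 in exons and 121 and 116 in introns. Split after values were seen, the list had 15 of 74 transcripts of Rbm genes selected (20.3%), and 1 of 90 (1.11%) of its other genes, that of Srsf10. The run on chromosome 19 held 7 of the 16, and outside it 9 of 157 (5.73%, with a 95% interval from 3.04% to 10.5%) were selected.

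The hnRNP list, of abundant nuclear RNA-binding proteins, had 8 of 117 selected (6.84%, with a 95% interval from 3.51% to 12.9% that includes the background share), with Hnrnpdl-202 at 230.3 and 258 in exons and 242 and 111 in introns, and Hnrnpf-206 at 121 and 261 in exons and 214 and 36.1 in introns. Taf15-203, of a related RNA-binding protein gene, had 207 and 126 in exons and 254 and 96.9 in introns. The core spliceosome list had 1 of 87 (1.15%), Lsm1-201, with 83.6 and 22.4 in exons and 154 and 49.3 in introns. The list took all Lsm genes by name, and Lsm1 belongs to a cytoplasmic complex of RNA decay; without it the list had 0 of 86. The list of RNA end processing, export and decay had 4 of 100, at 4.00%, close to the background. Cpsf6-201, of a cleavage factor gene, had 67.7 and 137 in exons and 86.1 and 40.4 in introns.

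Zinc finger genes named Zfp gave the largest count of any list, 37 of 308 transcripts (12.01%) from 28 of 146 genes, with list medians of 0.451 labeled and 0.0822 unlabeled. The DNA replication and repair list had 11 of 146 (7.53%), among them Orc2-204 with 37.0 and 169 in exons and 75.6 and 12.6 in introns. Pluripotency factors had 3 of 41 (7.32%, with an interval from 2.52% to 19.4% that includes the background share), Sall4, Nr5a2 and Stat3. Nr5a2-202, of a nuclear receptor gene active in these cells, had 47.8 and 73.7 in exons and 50.8 and 6.85 in introns.

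Chromatin modifiers had 5 of 270 (1.85%), with Cbx1-201, for heterochromatin protein HP1 beta, at 216 and 311 in exons and 252 and 56.6 in introns. Smarcd1-201, of a chromatin remodeler subunit, had 35.1 and 189 in exons and 119 and 29.1 in introns. RNA polymerase II, Mediator and elongation had 3 of 142 (2.11%), among them Cdk8-206 with 48.6 and 255 in exons and 59.1 and 33.8 in introns. Cell cycle and mitosis had 2 of 172 (1.16%): Cdc25a-207, of a phosphatase gene (39.3 and 104 in exons, 48.2 and 10.2 in introns), and Cenpa-209, of the centromeric histone gene (80.5 and 61.3, 165 and 71.8).

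Housekeeping lists differed in expression level and in share, and at high levels the rule was seldom met throughout. None of 177 transcripts of cytosolic ribosomal proteins was selected; their median mean exon value was 1499, and their median ratios were 0.0283 labeled and 0.00843 unlabeled. The 14 immediate early transcripts, not a housekeeping list and at a median mean exon value of 93.6, had none either. The 95% interval of that share, from 0% to 21.5%, includes the background share. Their median ratios were 0.186 labeled and 0.0168 unlabeled. Oxidative phosphorylation had 2 of 159 (1.26%), both of Uqcrq, and mitochondrial ribosomal proteins 2 of 85 (2.35%), Mrpl15-203 (82.8 and 96.9 in exons, 107 and 51.6 in introns) and Mrpl24-205 (44.6 and 76.1, 54.8 and 51.1). Translation factors and tRNA synthetases had 1 of 180 (0.556%), Vars-202 (15.7 and 100.5 in exons, 21.3 and 3.56 in introns). Glycolysis had 2 of 35 (5.71%, with a 95% interval from 1.58% to 18.6% that includes the background share), Gapdh-209 and Eno1-210, the latter at 116 and 160.2 in exons and 120.4 and 35.95 in introns.

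The remaining lists were near or below the background. Proteasome and ubiquitin genes had 8 of 288 (2.78%), 5 of them of Ube3a, and Ube2q2-202 had 31.8 and 117 in exons and 37.1 and 10.3 in introns. Chaperones had 3 of 138 (2.17%), all of Hsph1, a gene of the Hsp110 family; Hsph1-206 had 17.2 and 115 in exons and 34.6 and 19.2 in introns. Ribosome biogenesis had 2 of 90 (2.22%), both of the box C/D protein gene Nop58; Nop58-203 had 86.7 and 225 in exons and 139 and 28.9 in introns. Nuclear pore and transport had 3 of 98 (3.06%), among them Kpna4-202, of an importin (33.3 and 126, 46 and 7.62), and Xpo7-202, of an exportin (37.0 and 83.7, 47.5 and 13.1). Membrane traffic had 2 of 162 (1.23%), Sec62-201 (61.7 and 79.0, 68.4 and 11.5) and Sec22b-201 (54.6 and 54.8, 71.2 and 37.0). Cytoskeleton and motors had 8 of 165 (4.85%), among them Sept11-209 (33.6 and 113, 44.3 and 5.91) and Map7-202 (30.5 and 86.3, 43.7 and 10.3). Transcripts of genes in none of the lists had 316 of 7225 selected (4.37%).

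The remaining transcripts among the highest labeled ratios were minor isoforms. Ccni-203, of a cyclin gene, had exon values of 11.3 and 94.4 and intron values of 66.4 and 44.8, and made up 3.56% of its gene's exon value. Hsph1-203 had 10.2 and 97.0 in exons and 47.1 and 24.8 in introns, at 3.40% of its gene. In both, the labeled exon value was far below the unlabeled one. Ssr2-204, of a translocon-associated protein gene, had 58.0 and 72.3 in exons and 284 and 139 in introns, at 2.93% of its gene, and holds the pseudogene Gm10704 (602 and 392).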

How the data were processed

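The authors deposited TPM-like values, treated here as a score because each library sums to 10 times the TPM total over exon and intron entries; depth is unknown. They used STAR 2.5.0 and RSEM on mm10 (GRCm38). No sequencing counts were used. Transcripts were matched to GENCODE M21 (90.9% found), and overlaps with exons, shared 31-mers and readable intron ends were computed from it in Python 3.11.15 with numpy 2.4.6, pandas 2.3.3 and scipy 1.17.1, tested on simulated data. The labels call the second library both total and preexisting RNA. The members and lists were chosen with earlier results of these data known; pseudogenes, shared 31-mers, runs of genes, Gm and Rbm groups and parts of lists were added after values were seen. Named transcripts were those with the highest labeled ratio, mean exon value or unlabeled ratio, the lowest unlabeled ratio, most transcripts per gene, extreme lengths, a single intron, values nearest the thresholds, and the 2 highest of each list. With 1 library per pool no test was run. Only 6 summary values, the median spliced length and values of the other transcripts beside them were recomputed under other settings. Of these settings, 10 were chosen with the design and 3 added after values were seen.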

Additional observations from a re-analysis of the deposited data

How the results depend on the processing

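The ratio rule rests on 1 library per pool, so no replicate checks it, and the unknown depth limits what can be said of low values. No paired analysis was possible because each pool had a single library, both numbered replicate 1. The cause of the shifts below was not tested. A median or share counted as shifted when it left the 95% interval of the value reported, which covers sampling over transcripts only; 36 of 77 values stayed inside and 41 left it. Adding a pseudocount of 1 cannot change which transcripts are selected, so 5 of the 36 could not differ and say nothing of stability; the median unlabeled ratio was 0.204 with it. Leaving out transcripts with at least 5% of their intronic sequence in exons of other genes, which left 359 of the 438, shifted none of the 6 results. Correlations and the shares of lists, pseudogenes, 31-mers and splice sites were not recomputed.

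The values that shifted are the share selected, the median unlabeled ratio, the median labeled over unlabeled exon value, the median unspliced length, the share with at least 50% of intronic sequence in exons of the gene, and the share with a higher isoform, in that order. With an exon minimum of 10 the first 5 were 14.6%, 0.251, 0.631, 24333 bases and 3.28%. With no minimum all 6 were 32.7%, 0.537, 0.842, 28104 bases, 2.38% and 66.0%. A minimum of 100 gave a share of 1.86% and an unlabeled ratio of 0.301. Requiring an exon value of 50 in each library gave 2.56%, 0.337, 0.738 and 14348 bases for the first 4. With 1 transcript per gene the share was 2.66% and the length 22173 bases; the share with a higher isoform is not compared in that setting, which takes the highest isoform. A labeled intron of at least 1.5 times the exon gave a share of 1.55%, an unlabeled ratio of 0.393 and a length of 12890 bases. Subtracting leakage of unlabeled RNA, at 0.196 times the unlabeled value, gave 16.5%, 0.0675, 0.190, 32608 bases, 2.06% and 64.1%. The paper gives no measured value for this factor. Leaving out transcripts with an end not found gave 3.39%, 0.228, 0.567, 22320 bases, 3.94% and 62.7%.

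The number selected was 3144, 112 and 11118 with minimums of 10, 100 and none, 206 with 50 in each library, 121 with 1 transcript per gene, 160 at 1.5 times the exon, and 1695 after leakage was subtracted, which kept 403 of the 438. Leaving out transcripts with an end not found left 279.

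Of the settings chosen after seeing the data, leaving out predicted genes named Gm gave a share of 3.82%, an unlabeled ratio of 0.170 and an exon ratio of 0.463. Leaving out transcripts with at least 50% of their exon 31-mers in other genes gave 3.76%, 0.160 and 0.458, and leaving out those with a higher gene in an intron gave a share of 3.73%.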
